A study of Drosophila melanogaster with 8 samples.

Results

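The genes described here serve the nucleolus and the making of ribosomes. A list of 31 named fly genes was matched to the gene names of the deposited expression table, and 30 of the 13656 genes in the table matched. The remaining name, Fib (fibrillarin), is not analysed here. All 30 averaged at least 1 TPM over the libraries and were tested, together with 9287 genes in all. TPM is a transcript's share of the sequenced RNA per unit length, and a gene's value is the sum of its listed transcripts.

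RNA was sequenced from heads of female Drosophila melanogaster aged 5 days, in 4 genotypes that all expressed their transgene through Elav, a driver active in neurons. A temperature of 24 °C and a humidity of 60% are given for all samples. PR36 encodes a proline-arginine dipeptide repeat, and (G4C2)36 carries the GGGGCC repeat linked to C9orf72 amyotrophic lateral sclerosis and frontotemporal dementia. UPF1 RNAi targets Upf1, a helicase of nonsense-mediated mRNA decay, and PA36, a proline-alanine repeat, is the control named in the labels. PR36, (G4C2)36 and PA36 had 2 libraries each and UPF1 RNAi had 1 that could be used. The labels do not say whether the replicates of a genotype are separate batches of flies. The p-values therefore rest on the spread between libraries, and this spread may be technical. Head RNA was bulk RNA, in which fewer cells of a type and less RNA per cell cannot be told apart, and changes in neurons are mixed with RNA of the other head cells.

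Ribosomes begin in the nucleolus, where RNA polymerase I transcribes the ribosomal RNA precursor. Small nucleolar RNPs (snoRNPs), each a guide RNA with core proteins, then methylate it or convert uridines to pseudouridine. Processing factors, helicases and GTPases cut and fold the precursor into the small and the large subunit, which are exported to the cytoplasm. In flies the transcription factor Myc drives many of these genes, and arginine-rich dipeptide repeats such as proline-arginine are known to collect in nucleoli when overexpressed in cells. The comparisons ask whether repeat expression, or knockdown of Upf1, was accompanied by other levels of this machinery.

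The libraries were those of heads and differed in state. Neuronal elav stood between 31 and 62.1 TPM and the photoreceptor opsin ninaE between 21034 and 30990 TPM, while the eggshell gene Vm26Ab was at most 0.25 TPM. Some single markers differed between genotypes, and other markers of the same cell type did not always follow them. The summed level of 4 neuronal genes was 1144 and 1229 TPM in PR36 heads, 1154 and 1177 TPM in (G4C2)36 heads, 893 TPM in UPF1 RNAi heads, and 878 and 1159 TPM in PA36 heads. Among them nSyb was lowest in UPF1 RNAi, at 420 TPM against 609 to 833 TPM in the other libraries. Syt1 was highest there, at 403 TPM against 229 to 375 TPM in the others. In UPF1 RNAi elav (58.9 TPM) and brp (11.6 TPM) lay within the range of the other libraries. PR36 replicate 1 held brp at 0.13 TPM, against 8.32 to 18.9 TPM elsewhere. Glial Gs2 was 869 and 1105 TPM in PR36 heads and 1100 and 1043 TPM in (G4C2)36 heads. It was 576 TPM in UPF1 RNAi heads, and 563 and 596 TPM in PA36 heads. Glial repo did not follow Gs2, at 27.2 and 31.8 TPM in PR36 heads and 31.7 and 21.4 TPM in (G4C2)36 heads. For repo the UPF1 RNAi library held 31.5 TPM, and the PA36 libraries held 23 and 29.6 TPM. The fat body gene apolpp was 339 and 149 TPM in PR36 heads, 1397 and 1033 TPM in (G4C2)36 heads, 1919 TPM in UPF1 RNAi heads, and 949 and 943 TPM in PA36 heads. The part of these cell types in the results below was not tested. The summed level of 4 genes of dividing cells (PCNA, CycE, stg and Mcm2) was 1.2 to 10.5 TPM, with the highest value in (G4C2)36 replicate 1. Inducible Hsp70Aa stood at 2020 TPM in PR36 replicate 1 and 1448 TPM in PA36 replicate 1, against 4.93 to 155 TPM in the other 5 libraries. Yolk protein transcripts made up 16.3% of listed TPM in (G4C2)36 replicate 2, against 5.05% to 9.79% in the others. Upf1 itself stood at 18.6 and 19.6 TPM in PR36 heads, 18.2 and 16 TPM in (G4C2)36 heads, 11.3 TPM in UPF1 RNAi heads, and 10.3 and 19.1 TPM in PA36 heads. The UPF1 RNAi library lay within the PA36 range (limma log2 fold change -0.29, SE 0.37, adjusted p = 0.96), but the PA36 libraries lay far apart. It was above PA36 replicate 1 only and below every other library. The level of the targeted gene in whole heads thus does not settle whether the knockdown worked. TPM keep no read number, so the depth of the libraries is unknown.

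No member passed the test in any of the 6 comparisons (limma, Benjamini-Hochberg adjusted p below 0.05 over all tested genes). In PR36 against PA36, 0 of 30 members were called, beside 0.194% of all genes, and none had an unadjusted p below 0.05. The share was 0 of 30 beside 0.388% in (G4C2)36 and 0 of 30 beside 0.625% in UPF1 RNAi, with 1 member each at an unadjusted p below 0.05. With so few calls over the whole table, a count of 0 among 30 is what the background share gives. The medians of members and of all genes were alike in PR36 and apart in the other genotypes. The members' median log2 fold change was 0.13 in PR36, where all genes had 0.13, but -0.20 in (G4C2)36, where all genes had 0.13, and -0.15 in UPF1 RNAi, where all genes had 0.10. Relative to the median of all genes these are 0.00 for PR36, -0.33 for (G4C2)36 and -0.26 for UPF1 RNAi. Rescaling by the median of ratios brought the median of all genes to 0.01 in each comparison and the member medians to 0.01 for PR36, -0.32 for (G4C2)36 and -0.24 for UPF1 RNAi. In PR36, 25 of 30 members lay above 0, and 15 of 30 after this rescaling. In (G4C2)36, 27 of 30 members lay below the median of all genes, in UPF1 RNAi 24 of 30, and in PR36 15 of 30. The 3 comparisons share the PA36 libraries, so these positions are not independent of one another.

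**Figure D1:**
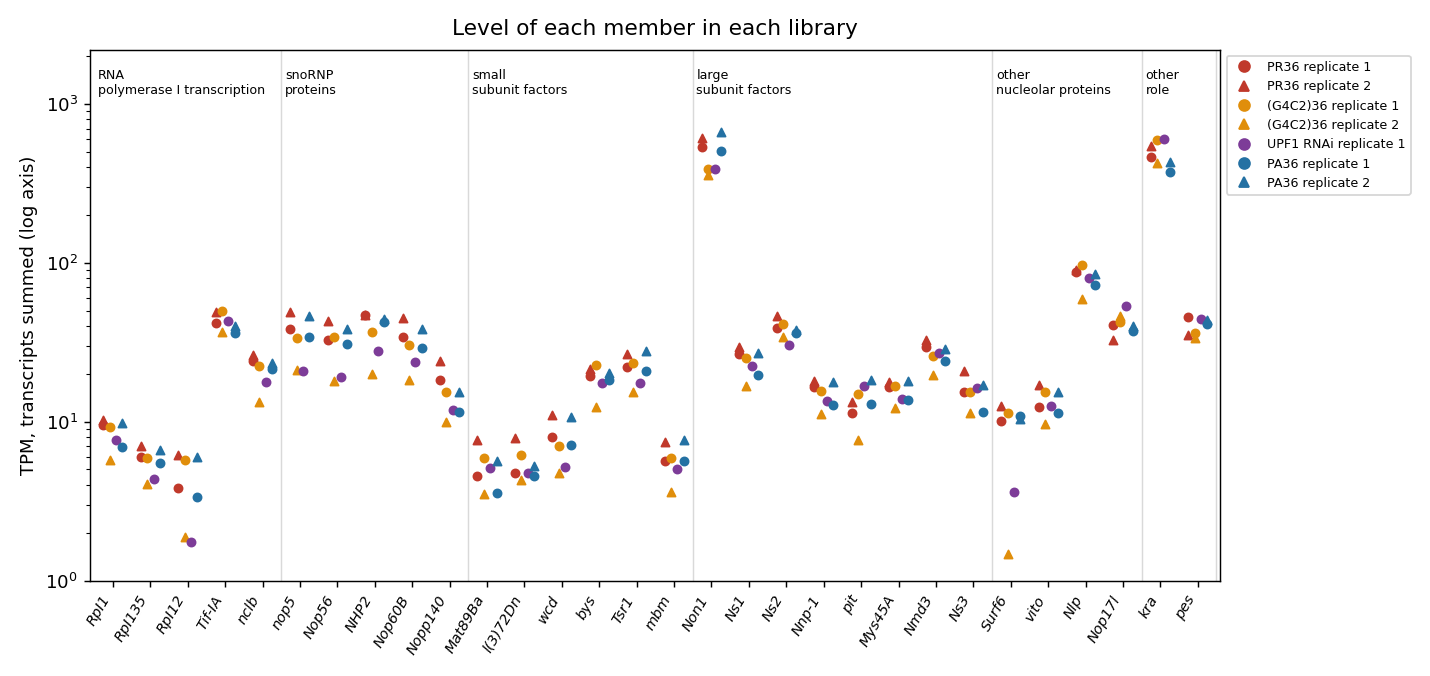
Level of each of the 30 members in the 7 libraries, in TPM on a log axis, with members ordered by role. Circles are replicate 1 and triangles replicate 2. Non1 and kra stand at 359 TPM or more in every library, and the lowest point is Surf6 in (G4C2)36 replicate 2 at 1.47 TPM.

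The members spanned a wide range of abundance, which TPM allows to be compared between genes. Averaged over the 7 libraries, Non1 and kra were the most abundant and RpI12 and Mat89Ba the least. The median member stood at 20.7 and 25.2 TPM in PR36 heads, 22.5 and 12.9 TPM in (G4C2)36 heads, 17.5 TPM in UPF1 RNAi heads, and 19 and 21.8 TPM in PA36 heads. Some names need a qualification. The gene kra (krasavietz) encodes a translation regulator related to eIF5 and is not known as a nucleolar factor. In this table pes is peste, a scavenger receptor of the CD36 family, and not the pescadillo gene of the nucleolus. Leaving out kra and pes, the remaining 28 members had the same median in PR36 (0.13) and (G4C2)36 (-0.20), and -0.17 in UPF1 RNAi.

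Of the genes of RNA polymerase I transcription, the 3 subunits were among the rarer transcripts, and Tif-IA and nclb were more abundant. RpI1, the largest subunit, stood at 9.53 and 10.3 TPM in PR36 heads, 9.29 and 5.75 TPM in (G4C2)36 heads, 7.61 TPM in UPF1 RNAi heads, and 6.92 and 9.87 TPM in PA36 heads. RpI135, the next subunit in size, which forms the catalytic core with RpI1, stood at 5.99 and 6.98 TPM in PR36 heads, 5.95 and 4.04 TPM in (G4C2)36 heads, 4.34 TPM in UPF1 RNAi heads, and 5.51 and 6.61 TPM in PA36 heads. Both subunits overlapped between each repeat genotype and PA36, and only RpI135 in UPF1 RNAi lay below both PA36 libraries. RpI12, a small subunit, stood at 3.8 and 6.17 TPM in PR36 heads, 5.77 and 1.88 TPM in (G4C2)36 heads, 1.75 TPM in UPF1 RNAi heads, and 3.37 and 5.96 TPM in PA36 heads. The UPF1 RNAi library lay below both PA36 libraries, and the replicates of each other genotype lay far apart.

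Tif-IA, the factor that recruits RNA polymerase I to its promoter, stood at 42 and 49 TPM in PR36 heads, 49.6 and 36.7 TPM in (G4C2)36 heads, 43.3 TPM in UPF1 RNAi heads, and 36 and 40 TPM in PA36 heads. Both PR36 libraries and the UPF1 RNAi library lay above both PA36 libraries. The log2 fold change was 0.25 in PR36 (SE 0.23, adjusted p = 0.996) and 0.19 in UPF1 RNAi (SE 0.28, adjusted p = 0.96). The value in PR36 was 0.14 without PR36 replicate 2. The gene nclb, whose protein is the fly counterpart of PWP1 and promotes polymerase I transcription, stood at 24.3 and 26.4 TPM in PR36 heads, 22.3 and 13.4 TPM in (G4C2)36 heads, 17.8 TPM in UPF1 RNAi heads, and 21.4 and 23.3 TPM in PA36 heads. For these 5 genes the median log2 fold change was 0.17 for PR36, -0.25 for (G4C2)36 and -0.31 for UPF1 RNAi.

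The snoRNP proteins had the lowest medians of the role groups in (G4C2)36 and UPF1 RNAi. Over their 5 listed genes the median log2 fold change was 0.12 for PR36, -0.48 for (G4C2)36 and -0.61 for UPF1 RNAi. All 5 lay above 0 in PR36, but only 27.4% of all genes lay below 0 there. The median of all genes in that comparison was 0.13, so the PR36 median of this group was at the background. In the other 2 genotypes all 5 lay below 0, while the median of all genes lay above 0. The (G4C2)36 values of this group rested largely on replicate 2. In (G4C2)36 replicate 1, Nop56 (33.9 TPM), Nop60B (30.5 TPM) and Nopp140 (15.3 TPM) lay within the PA36 range, and nop5 and NHP2 below it. The test called 0 of 5 in any comparison. The gene nop5 (2L, 6916753 to 6918743, BDGP6) encodes a core protein of box C/D snoRNPs, which guide methylation. It stood at 38.5 and 48.8 TPM in PR36 heads, 33.7 and 21.1 TPM in (G4C2)36 heads, 20.8 TPM in UPF1 RNAi heads, and 34 and 46.4 TPM in PA36 heads. Both (G4C2)36 libraries and the UPF1 RNAi library lay below both PA36 libraries, the higher of the (G4C2)36 libraries by a small margin, and PR36 overlapped PA36. The log2 fold change was -0.56 (SE 0.30, adjusted p = 0.83) in (G4C2)36 and -0.90 (SE 0.36, unadjusted p = 0.042, adjusted p = 0.75) in UPF1 RNAi. In (G4C2)36 it was -0.88 without (G4C2)36 replicate 1, -0.23 without (G4C2)36 replicate 2 and -0.34 without PA36 replicate 2. Compared directly, PR36 against UPF1 RNAi gave 1.02 (SE 0.36, unadjusted p = 0.025, adjusted p = 0.62).

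Nop56 (3R, 22419095 to 22421068) encodes the partner of nop5 in the same particle. It stood at 32.7 and 43.2 TPM in PR36 heads, 33.9 and 18 TPM in (G4C2)36 heads, 19.1 TPM in UPF1 RNAi heads, and 30.8 and 38.5 TPM in PA36 heads. Only UPF1 RNAi lay wholly outside the PA36 range, at -0.82 on the log2 scale (SE 0.40, adjusted p = 0.84), while the (G4C2)36 libraries overlapped it at -0.46 (SE 0.33, adjusted p = 0.87).

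NHP2 (3L, 14801328 to 14802168) belongs to box H/ACA snoRNPs, which guide pseudouridine formation. It stood at 46.8 and 46.9 TPM in PR36 heads, 36.7 and 19.9 TPM in (G4C2)36 heads, 27.9 TPM in UPF1 RNAi heads, and 42.3 and 44.2 TPM in PA36 heads. None of the 3 genotypes overlapped PA36: PR36 lay above it, and (G4C2)36 and UPF1 RNAi below it, with the UPF1 RNAi library between the (G4C2)36 libraries. The log2 fold change was 0.11 in PR36 (SE 0.30), -0.66 in (G4C2)36 (SE 0.30, unadjusted p = 0.061, adjusted p = 0.76) and -0.61 in UPF1 RNAi (SE 0.36, adjusted p = 0.94). The PR36 value was close to the median of all genes in that comparison, 0.13, where 27% of all genes lay wholly above PA36. The value in (G4C2)36 was -1.08 without (G4C2)36 replicate 1 and -0.23 without replicate 2. The direct difference between PR36 and (G4C2)36 was 0.77 (SE 0.30, unadjusted p = 0.035, adjusted p = 0.85).

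Nop60B (2R, 24174877 to 24186343), the fly dyskerin and the pseudouridine synthase of these particles, stood at 34.2 and 44.9 TPM in PR36 heads, 30.5 and 18.3 TPM in (G4C2)36 heads, 23.7 TPM in UPF1 RNAi heads, and 29.1 and 38.2 TPM in PA36 heads. Its (G4C2)36 libraries overlapped PA36 (-0.48, SE 0.31, adjusted p = 0.86). Only 1 of its 5 reference transcripts is listed, so its sum may be incomplete. Nopp140 (3L, 21832774 to 21836685), a chaperone of snoRNPs, was the exception of the group. It stood at 18.2 and 24 TPM in PR36 heads, 15.3 and 9.9 TPM in (G4C2)36 heads, 11.9 TPM in UPF1 RNAi heads, and 11.5 and 15.4 TPM in PA36 heads. Both PR36 libraries lay above both PA36 libraries, and its log2 fold change of 0.61 (SE 0.29, unadjusted p = 0.075, adjusted p = 0.996) was the highest of all members in PR36.

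A further member of the H/ACA particle outside the list was listed at 0. CG4038, which the reference annotation names Gar1, stood at 12.4 and 16.1 TPM in PR36 heads, 8.43 and 7.76 TPM in (G4C2)36 heads, 0 in UPF1 RNAi heads, and 12.1 and 10.7 TPM in PA36 heads. It was called lower in UPF1 RNAi (adjusted p = 0.0045). An exact 0 in a table of this kind can be a failed estimate, so no fold is given. Its (G4C2)36 values lay below both PA36 libraries.

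**Figure D2:**
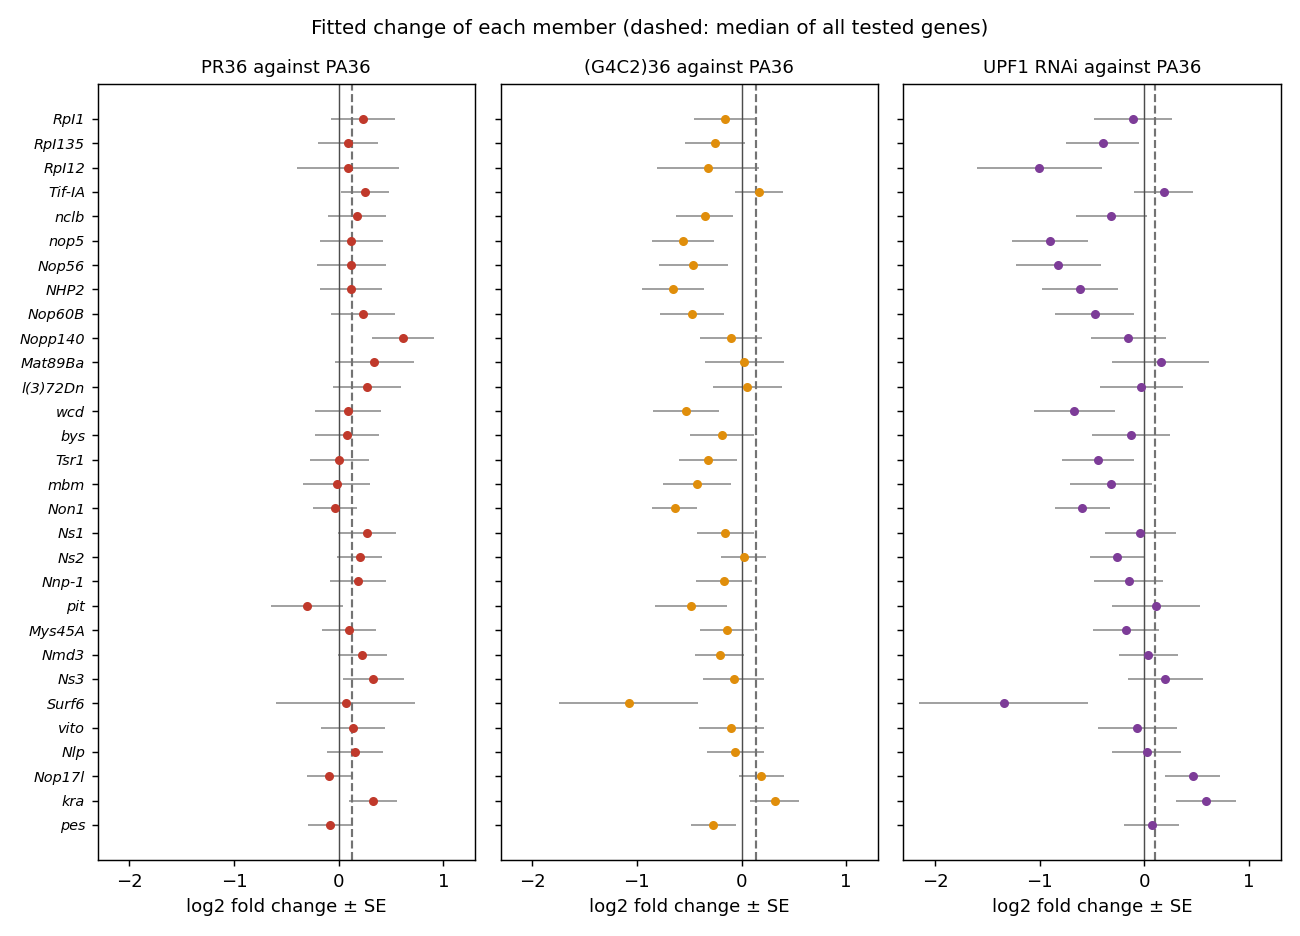
Log2 fold change of each member against PA36 with its standard error, in PR36, (G4C2)36 and UPF1 RNAi; the solid line is 0 and the dashed line the median of all tested genes. No member passed the test in any panel. The points of PR36 lie around the dashed line, while most of those of (G4C2)36 and UPF1 RNAi lie to its left, with Surf6 at -1.08 and -1.34.

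Several small subunit factors were among the rarer transcripts. Mat89Ba, the fly relative of human NOL6 in the small subunit processome, stood at 4.57 and 7.69 TPM in PR36 heads, 5.95 and 3.51 TPM in (G4C2)36 heads, 5.13 TPM in UPF1 RNAi heads, and 3.54 and 5.67 TPM in PA36 heads. The processome gene l(3)72Dn, also named UTP4, stood at 4.75 and 7.83 TPM in PR36 heads, 6.14 and 4.26 TPM in (G4C2)36 heads, 4.78 TPM in UPF1 RNAi heads, and 4.52 and 5.29 TPM in PA36 heads. In both genes every genotype overlapped PA36.

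The gene wcd (wicked), whose yeast relative Utp18 acts in the same complex, behaved more like the snoRNP genes. It stood at 7.97 and 11 TPM in PR36 heads, 6.99 and 4.74 TPM in (G4C2)36 heads, 5.15 TPM in UPF1 RNAi heads, and 7.17 and 10.7 TPM in PA36 heads. Both (G4C2)36 libraries and the UPF1 RNAi library lay below PA36, at -0.53 in (G4C2)36 (SE 0.32, adjusted p = 0.85) and -0.67 in UPF1 RNAi (SE 0.39, adjusted p = 0.93) on the log2 scale. The value in (G4C2)36 was -0.29 without (G4C2)36 replicate 2 and -0.27 without PA36 replicate 2. PR36 overlapped PA36.

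The later small subunit factors gave similar pictures. The bystin gene bys stood at 19.3 and 21.5 TPM in PR36 heads, 22.7 and 12.3 TPM in (G4C2)36 heads, 17.6 TPM in UPF1 RNAi heads, and 18.3 and 20.2 TPM in PA36 heads. Tsr1, which in yeast acts on late precursors, stood at 22 and 26.6 TPM in PR36 heads, 23.6 and 15.5 TPM in (G4C2)36 heads, 17.4 TPM in UPF1 RNAi heads, and 20.9 and 27.8 TPM in PA36 heads. The gene mbm (mushroom body miniature), a nucleolar protein of neural stem cells, stood at 5.62 and 7.43 TPM in PR36 heads, 5.89 and 3.6 TPM in (G4C2)36 heads, 5.05 TPM in UPF1 RNAi heads, and 5.62 and 7.63 TPM in PA36 heads. In these 3 genes UPF1 RNAi lay below both PA36 libraries and (G4C2)36 overlapped PA36. The 6 small subunit factors had a median log2 fold change of 0.08 for PR36, -0.25 for (G4C2)36 and -0.22 for UPF1 RNAi.

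Among large subunit factors, Non1 stood apart. Non1 (2R, 9396265 to 9398734) encodes a nucleolar GTPase related to yeast Nog1, which acts on large subunit precursors. It stood at 534 and 609 TPM in PR36 heads, 391 and 359 TPM in (G4C2)36 heads, 387 TPM in UPF1 RNAi heads, and 508 and 670 TPM in PA36 heads. Both (G4C2)36 libraries and the UPF1 RNAi library lay well below both PA36 and both PR36 libraries, and PR36 lay within the PA36 range. Its log2 fold change in (G4C2)36, -0.64 (SE 0.21, unadjusted p = 0.019), had the smallest p of all members in that comparison and did not pass adjustment (adjusted p = 0.57). In UPF1 RNAi it was -0.59 (SE 0.26, adjusted p = 0.81), or -0.39 without PA36 replicate 2, and in PR36 -0.03 (SE 0.21). PR36 against (G4C2)36 gave 0.60 (SE 0.21, unadjusted p = 0.024, adjusted p = 0.78). One of its 2 transcripts carried nearly all of the signal, with at most 0.132 TPM for the other.

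The nucleostemin family of GTPases showed smaller differences. Ns1, a nucleolar nucleostemin, stood at 26.7 and 29.3 TPM in PR36 heads, 25.2 and 16.8 TPM in (G4C2)36 heads, 22.4 TPM in UPF1 RNAi heads, and 19.6 and 27 TPM in PA36 heads. Ns2, also nucleolar, stood at 38.7 and 46.4 TPM in PR36 heads, 41.1 and 33.9 TPM in (G4C2)36 heads, 30.6 TPM in UPF1 RNAi heads, and 35.9 and 37.7 TPM in PA36 heads. PR36 lay above and UPF1 RNAi below both PA36 libraries for Ns2 (0.20, SE 0.22, and -0.26, SE 0.26), and neither passed. Ns3, the cytoplasmic member of the family, stood at 15.3 and 20.9 TPM in PR36 heads, 15.5 and 11.4 TPM in (G4C2)36 heads, 16.3 TPM in UPF1 RNAi heads, and 11.6 and 17 TPM in PA36 heads. Its log2 fold change in PR36 was 0.33 (SE 0.29, adjusted p = 0.996), and that of Ns1 was 0.27 (SE 0.27, adjusted p = 0.996). Both rested on single libraries. Ns3 was 0.07 without PA36 replicate 1, 0.59 without PA36 replicate 2, 0.54 without PR36 replicate 1 and 0.12 without PR36 replicate 2. Ns1 was 0.05 without PA36 replicate 1 and 0.49 without PA36 replicate 2.

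Nmd3 is the export adaptor of the large subunit and, despite its name, is not known as a factor of mRNA decay. It stood at 29.3 and 32.5 TPM in PR36 heads, 25.8 and 19.7 TPM in (G4C2)36 heads, 27 TPM in UPF1 RNAi heads, and 24 and 28.6 TPM in PA36 heads, so that only PR36 lay wholly outside the PA36 range (0.23, SE 0.23). Nnp-1, the relative of yeast Rrp1, stood at 16.4 and 17.9 TPM in PR36 heads, 15.6 and 11.2 TPM in (G4C2)36 heads, 13.4 TPM in UPF1 RNAi heads, and 12.7 and 17.7 TPM in PA36 heads. Mys45A, the relative of yeast Sda1, stood at 16.4 and 17.7 TPM in PR36 heads, 16.8 and 12.2 TPM in (G4C2)36 heads, 13.9 TPM in UPF1 RNAi heads, and 13.8 and 18.1 TPM in PA36 heads. The last pair of genes overlapped PA36 in all 3 comparisons.

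The DEAD-box helicase gene pit (pitchoune), a known Myc target, stood at 11.4 and 13.3 TPM in PR36 heads, 14.9 and 7.68 TPM in (G4C2)36 heads, 16.7 TPM in UPF1 RNAi heads, and 12.8 and 18.4 TPM in PA36 heads. It had the lowest log2 fold change of all members in PR36, -0.30 (SE 0.34, adjusted p = 0.996), with libraries that overlapped PA36. Over the 8 large subunit factors the median was 0.19 for PR36, -0.16 for (G4C2)36 and -0.09 for UPF1 RNAi.

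Surf6 (3R, 19903665 to 19904868), a nucleolar protein whose yeast relative Rrp14 acts in ribosome synthesis, had the widest spread. It stood at 10 and 12.5 TPM in PR36 heads, 11.3 and 1.47 TPM in (G4C2)36 heads, 3.59 TPM in UPF1 RNAi heads, and 10.8 and 10.5 TPM in PA36 heads. The (G4C2)36 libraries differed by 2.32 on the log2 scale, so the fold change of -1.08 (SE 0.66, adjusted p = 0.86) rested on replicate 2. Without that library it was 0.08. In UPF1 RNAi the log2 fold change was -1.34 (SE 0.81, adjusted p = 0.94). An exon of Surf6 overlaps ClpX on the same strand, so the reads assigned to each are uncertain.

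The other nucleolar proteins stayed close to PA36 or spread around it. The gene vito (viriato), a nucleolar regulator of growth, stood at 12.4 and 17.1 TPM in PR36 heads, 15.4 and 9.7 TPM in (G4C2)36 heads, 12.5 TPM in UPF1 RNAi heads, and 11.3 and 15.3 TPM in PA36 heads. Nlp, the nucleoplasmin-like histone chaperone, stood at 87.1 and 89.5 TPM in PR36 heads, 96.9 and 59.2 TPM in (G4C2)36 heads, 80.1 TPM in UPF1 RNAi heads, and 72.8 and 85.6 TPM in PA36 heads. Only PR36 lay above both PA36 libraries for Nlp (0.16, SE 0.27, adjusted p = 0.996).

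Nop17l, named after a yeast protein of snoRNP assembly, stood at 40.6 and 32.4 TPM in PR36 heads, 42.6 and 46.2 TPM in (G4C2)36 heads, 53.6 TPM in UPF1 RNAi heads, and 37.3 and 40.1 TPM in PA36 heads. It was the only member with both (G4C2)36 libraries above PA36 (0.19, SE 0.21, adjusted p = 0.92), and UPF1 RNAi lay higher still (0.46, SE 0.26, adjusted p = 0.92). PR36 against UPF1 RNAi gave -0.55 (SE 0.26, unadjusted p = 0.07, adjusted p = 0.92).

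The gene kra (3R, 5595364 to 5601136) stood at 465 and 547 TPM in PR36 heads, 593 and 423 TPM in (G4C2)36 heads, 606 TPM in UPF1 RNAi heads, and 372 and 434 TPM in PA36 heads. Both PR36 libraries and the UPF1 RNAi library lay above both PA36 libraries. The log2 fold change was 0.33 in PR36 (SE 0.23, adjusted p = 0.996) and 0.59 in UPF1 RNAi (SE 0.29, unadjusted p = 0.076, adjusted p = 0.84). The value in PR36 was 0.21 without PR36 replicate 2 and 0.22 without PA36 replicate 1. In (G4C2)36 it was 0.32 (SE 0.23, adjusted p = 0.87) with overlapping libraries. The gene pes stood at 45.5 and 35.2 TPM in PR36 heads, 36.3 and 33.8 TPM in (G4C2)36 heads, 44.6 TPM in UPF1 RNAi heads, and 41.3 and 43.5 TPM in PA36 heads.

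Groups of libraries that did not overlap can be counted without a model. In (G4C2)36, 5 of 30 members (NHP2, Non1, nop5, pes and wcd), or 16.7%, had every library below both PA36 libraries, beside 8.21% of all tested genes, and 1 (Nop17l) had every library above, beside 24.2%. In PR36, 8 of 30 members lay wholly above PA36, or 26.7%, beside 27% of all genes, and 0 lay wholly below, beside 6.72%. The UPF1 RNAi library lay below both PA36 libraries in 14 members, or 46.7%, beside 25.9% of all genes, and above both in 4, beside 45%. The share above PA36 in PR36 was thus at the background. In (G4C2)36 and UPF1 RNAi fewer members than genes in general lay above PA36, and more lay below. Of the 28 members without kra and pes, 4 lay wholly below PA36 in (G4C2)36 and 1 above. In UPF1 RNAi 14 of the 28 lay below and 2 above, and in PR36 0 lay below and 7 above.

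PR36 and (G4C2)36 can be compared without PA36. Of 30 members, 29 had a higher fitted value in PR36 than in (G4C2)36, with a median log2 fold change of 0.37 where all genes had -0.00. Without (G4C2)36 replicate 2 the median was 0.09, with 20 members above 0, where all genes had -0.18. It was 0.63 without (G4C2)36 replicate 1 and 0.24 without PR36 replicate 2. Both PR36 libraries lay above both (G4C2)36 libraries in 12 members, or 40%, beside 13.1% of all genes. These were NHP2, nop5, Nop60B and Nopp140 of the snoRNPs, RpI1, RpI135 and nclb of polymerase I transcription, wcd, Non1, Ns1, Nnp-1 and Nmd3. Nop17l lay wholly below, where 13.3% of all genes did. No member passed, beside 0.237% of all genes called, and 3 had an unadjusted p below 0.05 (Non1, NHP2 and Nopp140). PR36 against UPF1 RNAi gave a median of 0.32, against 0.02 for all genes, with no member called beside 0.431%. (G4C2)36 against UPF1 RNAi gave -0.03, against 0.01 for all genes, with no member called beside 0.581% and none at an unadjusted p below 0.05.

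Members deviated together from library to library, also within a genotype. In PR36, 28 of 30 members were higher in replicate 2 than in replicate 1, where the share of all genes higher in replicate 1 was 29.1%. In (G4C2)36, 29 of 30 were higher in replicate 1, beside 85.1% of all genes, and the median difference was 0.58 on the log2 scale, against 0.34 for all genes. In PA36, 29 of 30 were higher in replicate 2, with a median difference of replicate 1 minus 2 of -0.38, against -0.15 for all genes. The exceptions were Nop17l and pes in PR36, Nop17l in (G4C2)36 and Surf6 in PA36. The replicates of (G4C2)36 and of PA36 thus lay further apart, by the member median, than any genotype lay from PA36.

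**Figure D3:**
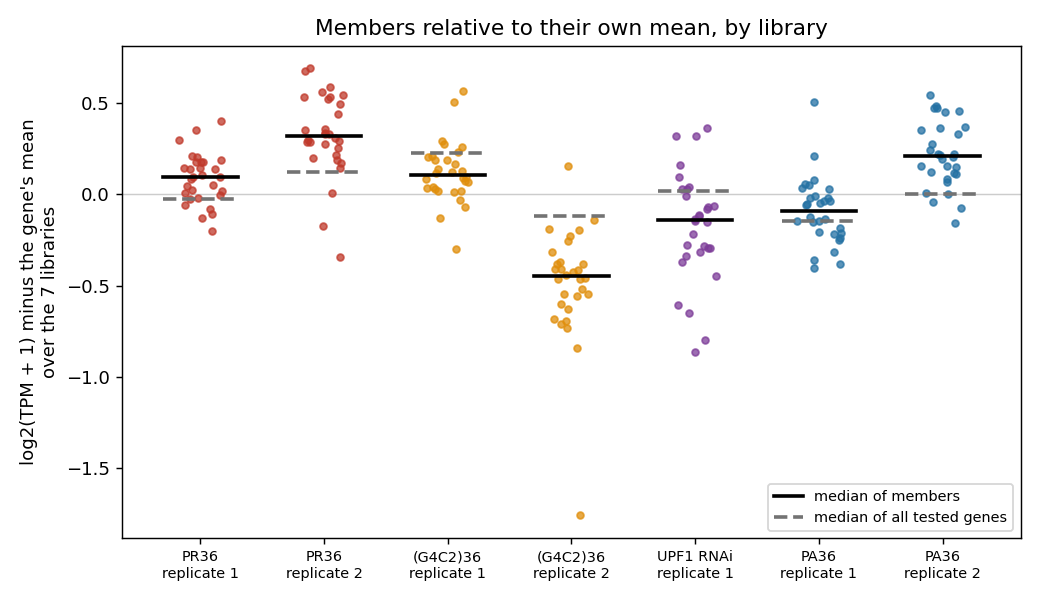
Each point is 1 of the 30 members in 1 library, as log2(TPM + 1) minus the gene's mean over the 7 libraries; black bars are the median of members and dashed bars the median of all tested genes. In both PR36 and both PA36 libraries the black bar lies above the dashed one, and in both (G4C2)36 libraries and the UPF1 RNAi library it lies below.

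The same libraries can be read against the other genes in them. The median member deviated from its own mean by 0.10 and 0.32 in PR36, by 0.11 and -0.45 in (G4C2)36, by -0.14 in UPF1 RNAi, and by -0.09 and 0.21 in PA36, all on the log2 scale. The difference between the member median and the median of all genes in the same library was 0.12 and 0.19 in PR36, -0.12 and -0.33 in (G4C2)36, -0.16 in UPF1 RNAi, and 0.05 and 0.20 in PA36. On this relative scale the (G4C2)36 and UPF1 RNAi libraries lay below all 4 libraries of PR36 and PA36. The same 3 libraries held the highest levels of the fat body gene apolpp. These were 1033 to 1919 TPM, against 149 to 949 TPM in the other 4 libraries. Yolk protein transcripts, also taken as fat body markers, did not divide the libraries in this way. They made up 8.25% and 16.3% of listed TPM in (G4C2)36 and 6.57% in UPF1 RNAi. Their share was 8.32% and 7.18% in PR36, and 9.79% and 5.05% in PA36. The part of the fat body in the result was not tested. (G4C2)36 replicate 2 held the lowest value of the 7 libraries for 24 of 30 members, beside 24.5% of all genes. It was also the library with the highest share of yolk protein transcripts, and their part in the result was not tested.

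Without (G4C2)36 replicate 2, the member median in (G4C2)36 turned to 0.08 and 13 of 30 members lay below 0, against 24 with it. The median of all genes was then 0.31, so the relative median was -0.23, and 27 of 30 members lay below the median of all genes. Without PA36 replicate 2, the member median in UPF1 RNAi was 0.02 and its relative value -0.14. Without the libraries with high heat shock genes (PA36 replicate 1 and PR36 replicate 1), the relative median was -0.04 for PR36, -0.41 for (G4C2)36 and -0.37 for UPF1 RNAi. The sign of the plain medians in (G4C2)36 and UPF1 RNAi therefore rested on single libraries, while their relative medians stayed below 0 in each of these fits.

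A list of 44 other ribosome biogenesis genes, with snoRNP, processome, helicase and exosome genes and the Myc network, lay in the same places. Its median was 0.16 in PR36, with 35 of 44 above 0, -0.19 in (G4C2)36, with 36 below 0, and -0.15 in UPF1 RNAi, with 33 below 0. None passed in PR36 or (G4C2)36, and CG4038, described above, was the 1 that passed in UPF1 RNAi. In PR36 the highest log2 fold changes were those of CG4554 and eIF6. CG4554 held 3.82 and 2.8 TPM in PR36 heads, 0 and 2.18 TPM in (G4C2)36 heads, 0 in UPF1 RNAi heads, and 0 and 4.29 TPM in PA36 heads, so no fold is given. The anti-association factor of the large subunit, eIF6, stood at 33.9 and 40.9 TPM in PR36 heads, 34.5 and 26 TPM in (G4C2)36 heads, 26.5 TPM in UPF1 RNAi heads, and 25.7 and 18.3 TPM in PA36 heads. All 5 libraries of the other genotypes lay above both PA36 libraries, with log2 fold changes of 0.75 (SE 0.26, unadjusted p = 0.024, adjusted p = 0.996) in PR36 and 0.45 (SE 0.26, adjusted p = 0.84) in (G4C2)36.

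The lowest values of this second list included genes of the exosome and the snoRNPs. In PR36 the exosome subunits Rrp46 (-0.36, SE 0.30, adjusted p = 0.996) and Rrp40 (-0.21, SE 0.27, adjusted p = 0.996) were lowest. In (G4C2)36 they were CG11837 (-0.58, SE 0.31, adjusted p = 0.83), and hoip (-0.58, SE 0.36, adjusted p = 0.86). The gene hoip encodes the box C/D protein that binds snoRNA first, and it stood at 49.1 and 59.2 TPM in PR36 heads, 47.7 and 21.7 TPM in (G4C2)36 heads, 27.5 TPM in UPF1 RNAi heads, and 44.3 and 53.6 TPM in PA36 heads. Its (G4C2)36 libraries overlapped the PA36 range, and UPF1 RNAi lay below it. Ns4 was the highest in UPF1 RNAi (0.41, SE 0.33, adjusted p = 0.96), where Rtc1 followed (0.31, SE 0.37, adjusted p = 0.96), and it came after eIF6 in (G4C2)36 (0.34, SE 0.27, adjusted p = 0.88).

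**Figure D4:**
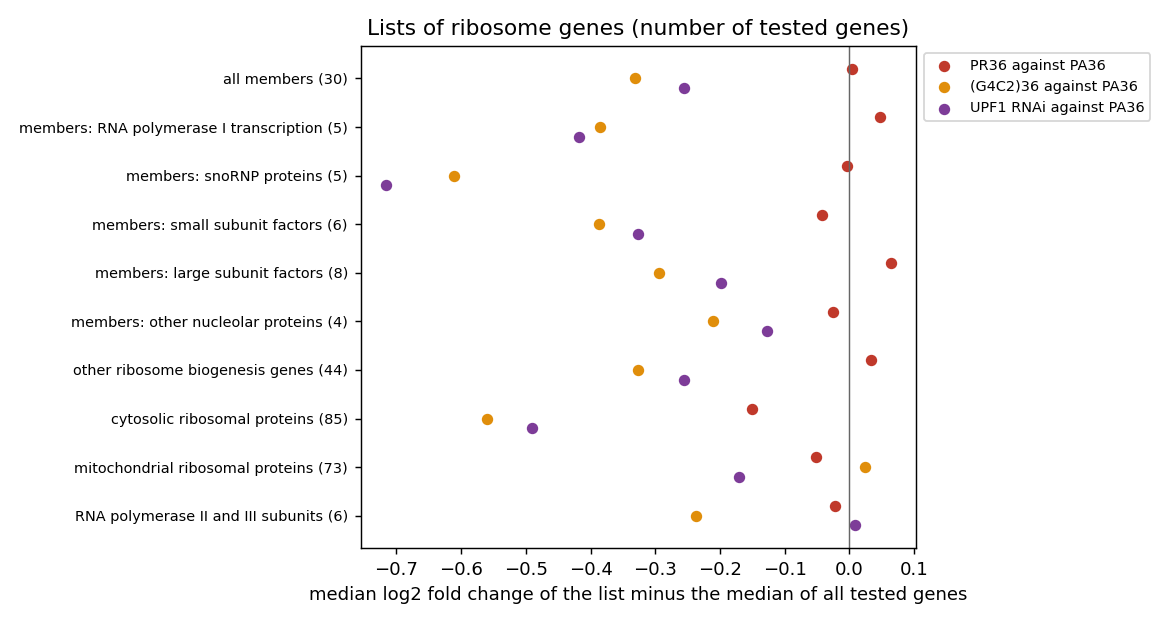
Median log2 fold change of each list minus the median of all tested genes, for PR36, (G4C2)36 and UPF1 RNAi against PA36, with the number of tested genes in brackets. Members lie at 0.00, -0.33 and -0.26; among the role groups the snoRNP proteins lie furthest left in (G4C2)36 and UPF1 RNAi, while in PR36 all role groups lie near 0.

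The lists closest in function help to place these medians. Cytosolic ribosomal proteins, which are assembled onto the ribosomal RNA, had relative medians of -0.15 for PR36, -0.56 for (G4C2)36 and -0.49 for UPF1 RNAi over 85 genes. Mitochondrial ribosomal proteins had -0.05, 0.02 and -0.17 over 73 genes. The 6 listed subunits of RNA polymerases II and III had -0.02, -0.24 and 0.01. In (G4C2)36, 80 of 85 cytosolic ribosomal protein genes lay wholly below PA36, beside 8.21% of all genes. So did 10 of the 44 other ribosome biogenesis genes, 1 of 73 mitochondrial ones and 0 of the 6 polymerase subunits. In PR36, 75, 21, 0 and 0 genes of these lists lay wholly above (G4C2)36, beside 13.1% of all genes. The differences between these lists were not tested, and nothing particular to the members follows from them.

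A few members hold genes of guide RNAs. By the BDGP6 annotation, 4 of 30 members (13.3%) contain a gene of a small nucleolar or Cajal body RNA on their own strand, beside 1.63% of the 9211 tested genes in the annotation. These are kra with 8, Nop60B with 7, and nop5 and pit with 1 each, which adds up to 17 such genes. The RNAs inside kra are named for pseudouridine sites in 28S ribosomal RNA. The values of these short RNAs were low and uneven. The gene snoRNA:Psi28S-3571 in kra was given 0.042 and 16.8 TPM in PR36 heads, 13.4 and 12.5 TPM in (G4C2)36 heads, 8.42 TPM in UPF1 RNAi heads, and 10.5 and 17.5 TPM in PA36 heads. Its PR36 replicates lay far apart, so no comparison is made.

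Members differed in how simply they could be counted. Of 30, 21 had a single listed transcript, 9 had several, and 27 had every reference transcript listed, the others being Nop60B, l(3)72Dn and pes. Of the 7 transcripts of kra, FBtr0078745 held 86.3% to 89.2% of its TPM in every library. Nopp140 was divided otherwise. Its transcript FBtr0089580 held 68.9% and 65.5% in PR36, 33.4% and 57.6% in (G4C2)36, 55.6% in UPF1 RNAi, and 64.6% and 68.2% in PA36. FBtr0332811 was listed at 5.23 TPM in (G4C2)36 replicate 1 and 2.66 TPM in UPF1 RNAi heads and at 0 in the other 5 libraries. How reads were divided between the transcripts of a gene is an estimate, so these shares are descriptions. Exons of 13 members overlap another annotated feature. Among these is an antisense gene for each of Nopp140, Nlp, Nmd3, RpI1, RpI12 and Nop17l. Without knowledge of strand such reads cannot be told apart.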

How the data were processed

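RNA from fly heads was sequenced by the authors in 8 samples of 4 genotypes, with 40 heads in total per genotype per the labels. Per the submitters' processing notes, the tools were HISAT2 2.1, HISAT and bcl2fastq, with build BDGP6. Which program computed TPM, with which annotation and with or without strand, is not given in the sources used here. For 26309 transcripts the deposited values are TPM. Each line has 11 cells under a header of 10 names. Reading names from left to right assigns 7 libraries, and 1 further column of values, which has no name, stayed out. The second UPF1 RNAi library is therefore not analysed here.

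Transcripts were summed per gene, and log2(TPM + 1) was fitted for the 9287 genes averaging 1 TPM or more with limma 3.58.1 (R 4.3.3). The fit had 1 coefficient per genotype and a trended prior, was two-sided, and had 3 residual degrees of freedom. This scale understates fold changes of weakly expressed genes. P-values were Benjamini-Hochberg adjusted over all tested genes, and genes below 0.05 are called. The fit was tested on simulated data with the fitted spread. Changes of 1 on the log2 scale were called in 28.4% of cases for PR36, 13.4% for (G4C2)36 and 4.48% for UPF1 RNAi. Changes of 2 were called in 86.6%, 82.1% and 55.2%. A member with a true change of 1 or less would thus mostly not be called. The changed genes were drawn anew for each comparison, 67 of them at a change of 1. PR36 and (G4C2)36 have equal numbers of libraries, so their unequal rates are not read as a difference between genotypes. The simulation held 200 changed genes, more than were called in the data, and its noise was independent between genes. Members deviated together within libraries, so the rates are only a rough guide. Positions, transcripts and overlaps come from Ensembl release 115 (BDGP6). Summaries and figures used Python 3.11.15, pandas 2.3.3 and matplotlib 3.10.9.

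Members and lists were chosen with earlier results of these data known. Every member is named; those with full statistics are mainly the 5 smallest p-values per comparison with PA36, and other members' statistics were added after their values were seen. Of the other list, called genes and the 2 highest and 2 lowest are named. Alternatives were the pseudocount, the filter, rescaling, the trend, the groups fitted, a block for the replicate number and each replicate left out. Fits on completely listed genes and without the libraries with high heat shock genes were added after the data were seen. Promoter motifs were not analysed here.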

Additional observations from a re-analysis of the deposited data

How the results depend on the processing

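No member passed under any alternative in any comparison, by limma. The smallest adjusted p of a member over the alternatives was 0.869 to 1 in PR36 against PA36, 0.0858 to 0.914 in (G4C2)36, 0.189 to 0.798 in UPF1 RNAi and 0.0837 to 1 in PR36 against (G4C2)36. The lowest value in the last comparison was that of Surf6 without (G4C2)36 replicate 1. Relative to the median of all genes, the member median was -0.04 to 0.11 for PR36, -0.42 to -0.23 for (G4C2)36 and -0.37 to -0.14 for UPF1 RNAi. The plain member median in (G4C2)36 ran from -0.45 without (G4C2)36 replicate 1 to 0.083 without (G4C2)36 replicate 2. Surf6 in (G4C2)36 ran from -2.24 without replicate 1 to 0.084 without replicate 2. The count of all genes called depended on the fit. Leaving out 1 library gave 46 to 60 genes for PR36, 26 to 86 for (G4C2)36 and 73 to 91 for UPF1 RNAi, against 18, 36 and 58 with all libraries. Leaving out PA36 replicate 1 and PR36 replicate 1 together, where heat shock genes were high, gave 191, 282 and 239, with no filter on low values 7 for PR36, and with only the groups compared 90 for (G4C2)36 and 3 for UPF1 RNAi. With a replicate block it was 33 for PR36, 57 for (G4C2)36 and 66 for UPF1 RNAi. Over all genes, the deviations of same-numbered samples were little correlated (-0.077, 0.097 and -0.074), so the numbers were not taken to pair them. PR36 replicate 1 and PA36 replicate 1 nevertheless shared high heat shock genes. In these genotypes 28 and 29 of 30 members were lower in replicate 1, as were most genes in general. Whether these samples were handled together was not tested. The causes of the changes in the count of genes called were not tested. UPF1 RNAi had 1 library, which could not be left out, and where an arm kept 1 library it was assumed to vary like the other groups. The number of reads behind the values is unknown, so counting error could not be given.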
